A study of Mus musculus with 6 samples.

Results

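Aortas with calcified atherosclerotic plaques were compared with aortas calcified in the medial layer, using every gene that passed a floor of expression in these samples. The 4 libraries titled ApoE1, ApoE2, CKD1 and CKD2 were taken from the 6 RNA libraries of the series. Of 27815 genes in the deposited tables, 13531 had at least 1 FPKM in 2 or more of the 4 libraries and were tested. FPKM is reads per length of exon and per total reads of the library. The floor was fixed on level alone, without regard to group, but 2 libraries of a single group were enough to pass it. So 648 genes passed only through ApoE, of which 510 were called higher. Another 654 passed only through CKD, of which 508 were called lower. The floor favoured those directions, so these calls support nothing by their number, and the counts below include them. At the edge of the floor, 289 genes had a second-highest value from 1 up to 1.1 FPKM and 293 from 0.9 up to 1. Echdc1, just inside, had ApoE values of 2.13 and 0.881 FPKM, with a second-highest value of 1.0001.

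The ApoE group was C57BL/6 mice lacking apolipoprotein E, a ligand through which cells take up lipoprotein particles, which had eaten chow until 16 months of age. The CKD group was C57BL/6 mice with chronic kidney disease. Their kidney mass was reduced in 2 operations, the first at 8 weeks of age and the second after 1 week of recovery, and they then had a 2% phosphate diet and 0.45% NaCl in their water for 4 weeks. Their age label of 16 months conflicts with that protocol, so the age of the CKD mice is uncertain. Young wild-type C57BL/6 aorta (Ctrl, labelled 2 months) gives the level without either model and shared the estimate of spread. Genotype, diet, surgery and possibly age differ together between ApoE and CKD, so their parts in any difference cannot be told apart. No label says that libraries came from separate animals, and the protocol for RNA extraction speaks of pooling 4 samples, there for miRNA work. The spread behind every p-value is therefore that between libraries of a group, and it may be technical.

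Calcification of an artery takes different forms by layer. In plaques, mineral forms in the inner layer among lipid, dying cells and foam cells, which are macrophages loaded with cholesterol. In kidney failure with phosphate loading, mineral forms along elastic fibres and around the smooth muscle cells of the middle layer, the media, with little lipid or inflammation. Genes of both settings include inhibitors of mineral, such as matrix Gla protein, and genes shared with bone and cartilage.

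Each library held 14.4 to 16.6 M reads (M, mega), and 94.3% to 94.8% of values under 60 reads fell within 0.05 of a whole number of reads. Apoe, the targeted gene (ENSMUSG00000002985; GRCm38 chromosome 7, 19696109 to 19699188), was at 13.2 and 11.4 FPKM in the 2 ApoE libraries, at 1410.5 and 1447 in CKD and at 756 and 627 in Ctrl. The libraries of a group correlated at 0.977 in ApoE and 0.966 in CKD across genes, against 0.816 to 0.857 between the groups. Genes are not independent replicates, so these are descriptions. Values are given for the first and second library of a group, in that order. Differences are ApoE minus CKD on log2(FPKM + 1), with limma's standard error (SE) and an adjusted p from limma with Benjamini-Hochberg correction over the 13531 genes. Of the tested genes, 6950 had an unadjusted p below 0.05. This scale understates the difference of low genes. Because strand was not marked by the kit, values of genes that overlap another annotated gene are uncertain, which among the genes named here holds for Abcc9, Adra1d, Adrb3, Ahsg, Ank, Aspn, Axin2, Bcl3, Bmp4, Ccn2, Cd74, Cd9, Cdkn1a, Col10a1, Col15a1, Col3a1, Dbp, Dsp, Echdc1, Ednra, Eln, Fbn1, Ftl1, Gas6, Hk3, Htr2b, Igfbp7, Igtp, Il18bp, Il1a, Il1b, Junb, Kcnma1, Mfap4, Mirlet7b, Mirlet7c-2, Mrtfa, Mrvi1, Nos3, Nr1d1, Nr1h3, Orai1, Pdgfra, Pfkm, Pltp, Runx1, Runx2, Slc20a1, Slc20a2, Slc2a1, Spp1 and Vcam1.

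Cell type markers differed between the groups in the way the plot of summed markers shows. The 5 macrophage markers summed to 4843 and 8370 FPKM in ApoE and to 587 and 1002 in CKD. The 4 foam cell markers summed to 3971 and 4025 FPKM in ApoE and to 49.1 and 90.8 in CKD. Smooth muscle markers summed to 618 and 543 FPKM in ApoE and to 3306 and 5775 in CKD. These ranges do not overlap. Single abundant genes made up most of each sum. In ApoE these were Lyz2 at 3885 and 7240 FPKM, Spp1 at 3109 and 2652, and Acta2 at 494 and 437. By gene, 4 of the 5 macrophage markers were called higher. Csf1r was not called, at 68.4 and 62.4 FPKM in ApoE and 35.4 and 53.1 in CKD. All 4 foam cell markers were called higher and all 5 smooth muscle markers lower. Markers of fat around the vessel did overlap, with white adipocyte sums of 574 and 562 FPKM in ApoE and 1533 and 474 in CKD, so the 2 CKD libraries differed more from each other than from ApoE. Mesothelial markers summed to 8.22 and 4.56 FPKM in ApoE and to 54.1 and 43.8 in CKD, and cardiomyocyte markers to 9.17 and 9.41 against 25.0 and 28.2. No marker was at 0 in all 4 libraries. In RNA from whole tissue, fewer cells of a type and less RNA in each of those cells cannot be told apart.

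**Figure D1:**
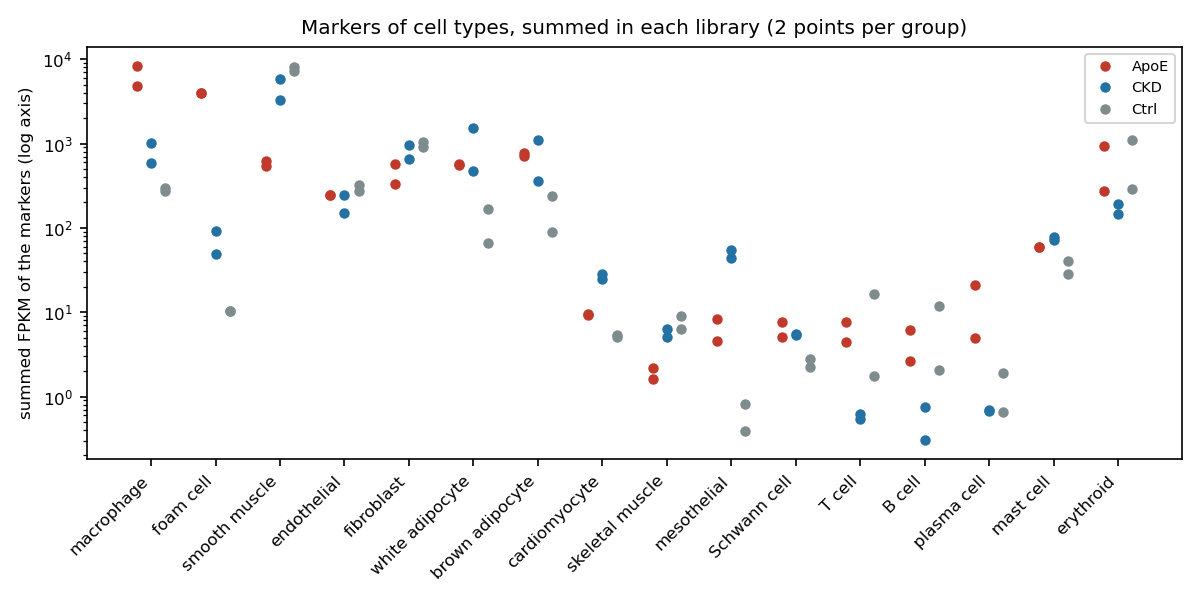
Summed FPKM of fixed markers for 16 cell types in each library, on a log axis; each point is 1 library of ApoE, CKD or Ctrl. Macrophage and foam cell sums are higher in both ApoE libraries than in both CKD libraries, smooth muscle sums are lower, and white adipocyte sums overlap.

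The limma test called 5601 of 13531 genes (41.4%), 2637 higher in ApoE (19.5%) and 2964 lower (21.9%). These shares are the background for the count of every list below, and a count near them says nothing about its list. The 2 groups did not overlap for any called gene, a pattern that 71.5% of all tested genes had. At least a 2-fold difference was reached by 1281 called genes on the higher side (9.47% of tested) and 1265 on the lower side (9.35%). At least an 8-fold difference was reached by 118 and 50. When the test itself required more than a 2-fold difference, 365 genes were higher and 274 lower, 639 in all. The median difference of all tested genes was -0.03, and the median SE was 0.17. Without ApoE2 the test called 3052 genes, 1684 higher and 1368 lower, and without ApoE1 it called 1653 higher and 2211 lower. Some calls named below rest on single libraries. Leaving out ApoE1 ended the calls of Acly, Agt, Bgn, Ccl2, Ccr2, Cdh5, Cdkn1a, Dkk2, Ebp, Fasn, Hspa5, Igfbp7, Mki67, Nog, Nr1h2, Orai1, Runx2, Scd1, Smad6, Sod3, Sox6, Tie1, Tlr5, Tnfrsf11b and Vcam1. Without ApoE2 those of Atp6v0d1, Bgn, C7, Ccr2, Cd163, Cd74, Cdh5, Cdkn1a, Ebp, Fasn, Fbn1, Fth1, Fzd1, Gas6, Hsd17b7, Hspa5, Igfbp7, Iigp1, Irf4, Msx1, Nog, Nr1h2, Nr1h3, Orai1, Per3, Runx2, Scd1, Serping1, Smad6, Sod3, Sox6, Tie1, Tlr5, Tnfrsf11b and Vcam1 were lost. The calls of Acly, Ccl2, Ccr2, Ebp, Fth1, Hsd17b7, Jchain, Mki67, Msx1, Nr1h2, Orai1, Pianp, Runx2, Serping1, Smad6, Sox6, Tfrc and Tie1 were lost without CKD1. Without CKD2 those of Acly, Cd163, Fasn, Fbn1, Fth1, Hsd17b7, Igfbp7, Jchain, Lyve1, Mki67, Msx1, Pianp, Scd1, Serping1, Smad6, Tfrc and Tlr5 ended. Leaving out either Ctrl library ended those of Bgn, Ccr2, Ebp, Fth1, Hspa5, Nr1h2, Runx2, Serping1, Sox6 and Tlr5.

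Most of the large differences separated ApoE from both other groups. Of the 1281 genes higher in ApoE by at least 2-fold, the Ctrl mean lay below CKD for 668 and between the groups but nearer CKD for 508. Of the 1265 lower genes, Ctrl lay above CKD for 645 and between but nearer CKD for 400. Ctrl lay nearer ApoE for 86 of the higher and 166 of the lower genes, and past ApoE for 19 and 54.

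**Figure D2:**
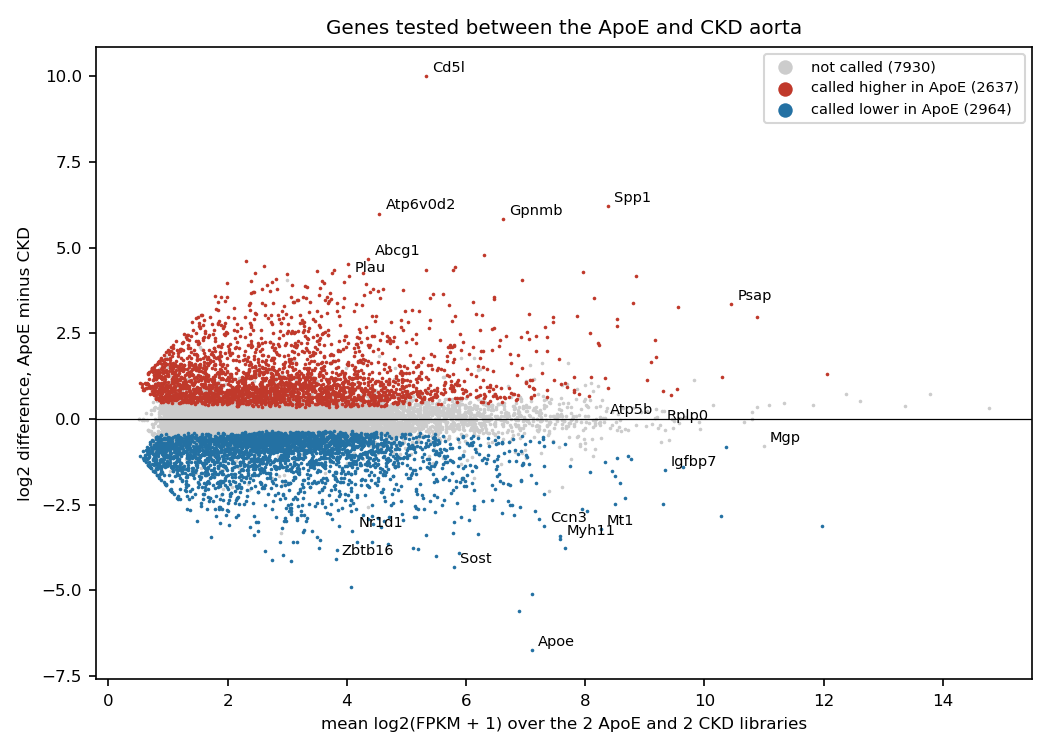
Log2 difference between ApoE and CKD (vertical axis) against mean log2(FPKM + 1) over the 4 libraries (horizontal axis) for 13531 genes; red points were called higher in ApoE (2637), blue points lower (2964) and grey points were not called. Cd5l and Apoe lie at the ends, at 10.02 and -6.75, and Atp5b, Rplp0 and Mgp lie among the grey points.

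Genes for moving cholesterol out of cells were higher in ApoE, while genes for making cholesterol were mostly not called. The liver X receptor (LXR) is a nuclear receptor that senses oxidised cholesterol and turns on cholesterol export. Of 15 tested LXR targets and efflux genes, 10 were called higher and 1 lower, with a median difference of 1.45 against -0.03 for all genes. Abcg1, which exports cholesterol to high-density lipoprotein (ENSMUSG00000024030; GRCm38 chromosome 17, 31057675 to 31117988), was at 89.5 and 118 FPKM in ApoE, 2.78 and 3.41 in CKD and 1.58 and 1.51 in Ctrl. Both ApoE libraries lay far above the other 4, and the difference was 4.67 (SE 0.17, adjusted p = 0.000346). Nceh1, an enzyme that frees cholesterol from its stored esters, was at 34.2 and 50.9 FPKM in ApoE and 2.24 and 3.8 in CKD, a difference of 3.44 (SE 0.26, adjusted p = 0.000766). Abca1, the exporter that loads lipid-poor apolipoproteins, was at 80.1 and 86.4 FPKM in ApoE and 15.5 and 12.9 in CKD, a difference of 2.48. Pltp, which transfers phospholipid between lipoproteins, and Arl4c, a small GTPase, differed by 3.05 and 2.97. Scd1, which makes monounsaturated fatty acids, differed by 2.91. Nr1h3, which encodes LXR alpha, was called higher (1.44), and Nr1h2, which encodes LXR beta, was called lower (-0.51).

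Cholesterol synthesis genes divided differently. Of 23 tested, 3 were called higher and 2 lower, and the median was 0.00. That median was -0.04 to -0.17 without a floor on level, with scaling on a sum without mitochondrial and the 50 top genes, and without ApoE1. Sqle, the squalene epoxidase, was at 2.73 and 1.61 FPKM in ApoE and 2.12 and 3.31 in CKD, and the groups overlapped. Among the called genes were Mvd (1.50), Dhcr7 (1.44) and Ebp (0.40) on the higher side and Hsd17b7 (-0.75) on the lower side.

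Nearly all lysosomal genes were higher in ApoE. Lysosomes are the acid compartments in which macrophages digest lipoproteins, dead cells and matrix, and the V-ATPase is the proton pump that acidifies them. Of 49 tested lysosome and V-ATPase genes, 46 were called higher in ApoE and none lower, with a median of 1.45. The count ranged from 37 to 47 over the alternatives of scaling, filter, spread, block, covariate and left-out library, and the median from 1.31 to 1.61, and 17 passed when the test required more than a 2-fold difference. Lipa, lysosomal acid lipase, which frees cholesterol from lipoproteins (ENSMUSG00000024781; GRCm38 chromosome 19, 34492318 to 34527474), was at 191 and 265 FPKM in ApoE and 16.6 and 24.5 in CKD, a difference of 3.41 (SE 0.24, adjusted p = 0.000683). Psap, the precursor of proteins that help digest sphingolipids, was at 3479 and 5779.9 FPKM in ApoE and 384 and 494 in CKD, close to Ctrl at 484 and 482. Gla, alpha-galactosidase, was at 26.9 and 30.8 FPKM in ApoE and 2.61 and 3.75 in CKD. Gusb, beta-glucuronidase, was at 161 and 170.3 FPKM in ApoE and 12.2 and 20.1 in CKD. In each of these 4 genes both ApoE libraries lay above both CKD libraries, as in every gene called higher and in 33.6% of all tested genes.

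The V-ATPase itself showed a wide range. Atp6v0d2, the subunit isoform of osteoclasts and macrophages, was at 129.8 and 265 FPKM in ApoE and 1.39 and 2.57 in CKD, a difference of 5.99 (SE 0.36, adjusted p = 0.000501). Its widely expressed counterpart Atp6v0d1 was at 75.2 and 93.4 FPKM in ApoE and 43.0 and 49.7 in CKD, a difference of 0.84. Atp6v1d, a rotor subunit, was at 24.0 and 26.1 FPKM in ApoE and 12 and 12 in CKD (difference 1.00, SE 0.11, adjusted p = 0.00203). It is among the 5 called genes with the smallest adjusted p below a 2-fold difference. Among the members that were not called were Lamp2 (0.57), a membrane protein, and Smpd1 (-0.30), acid sphingomyelinase.

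The letters TCACGTGA, the core of the element bound by TFEB-family regulators of lysosomal genes, were searched in 300-base promoter windows from RefSeq (build GRCm38.p6, 250 bases before to 50 after a start site). The motif reads the same on both strands. It was present in windows of 7 of the 36 lysosomal list genes with a window (19.44%), of 1.12% of all 27025 genes with a window and of 2.16% of tested ones. The shares among genes called higher and lower were 2.45% and 1.74%, against 2.22% of genes not called. The windows of a pump subunit and of a lysosomal enzyme are shown, with the motif in capitals, because these are 2 of the lysosomal genes called higher that carry it. Atp6v1a lies at chr16:44139210-44139509 on the minus strand and Gla at chrX:134600956-134601255 on the minus strand, and Gla holds the motif in 2 places.
Atp6v1a: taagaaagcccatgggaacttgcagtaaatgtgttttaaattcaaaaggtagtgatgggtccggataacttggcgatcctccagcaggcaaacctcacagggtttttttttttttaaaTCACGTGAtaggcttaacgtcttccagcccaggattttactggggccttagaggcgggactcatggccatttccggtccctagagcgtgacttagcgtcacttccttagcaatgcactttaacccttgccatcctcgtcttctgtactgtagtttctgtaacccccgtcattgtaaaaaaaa
Gla: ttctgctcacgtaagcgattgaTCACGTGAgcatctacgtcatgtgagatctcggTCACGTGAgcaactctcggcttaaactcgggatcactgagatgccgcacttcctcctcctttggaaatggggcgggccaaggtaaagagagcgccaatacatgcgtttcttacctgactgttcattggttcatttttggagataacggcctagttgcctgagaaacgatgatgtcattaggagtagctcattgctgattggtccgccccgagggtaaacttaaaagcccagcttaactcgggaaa
In Atp6v1a the motif starts 132 bases before the start site. In Gla it starts 228 and 195 bases before. Atp6v1a, a catalytic subunit, was at 58.7 and 67.8 FPKM in ApoE and 12.4 and 21.6 in CKD. A match of letters is a description and does not show that a factor binds there.

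Foam cell genes were higher in ApoE, while genes of the macrophages that normally live in the outer vessel wall were called in both directions. Of 22 foam cell genes, 18 were called higher and none lower, with a median of 3.40. Gpnmb, a membrane glycoprotein of lipid-loaded macrophages, was at 578 and 954 FPKM in ApoE and 7.59 and 18.8 in CKD, a difference of 5.83 (SE 0.47, adjusted p = 0.000902). Fabp5, a fatty acid carrier, was at 218 and 317 FPKM in ApoE and 15.3 and 8.06 in CKD. Soat1, which makes cholesterol esters for storage, was at 19.6 and 28.9 FPKM in ApoE and 3.12 and 4.35 in CKD, and Plin2, a coat protein of lipid droplets, at 304 and 292 FPKM in ApoE and 71.0 and 47.8 in CKD. Not called were Cd36 (0.98), Lpl (0.87), Cd9 (0.54) and Lgals1 (0.06). Cd36 and Lpl, which handle fatty acids, are also expressed in fat, and Cd36 was at 329 and 390.1 FPKM in ApoE and 262 and 125 in CKD.

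Of 15 genes of resident adventitial macrophages, 2 were called higher and 3 lower, against 19.5% and 21.9% of all tested genes. The median was -0.02, with a sign that turned in 5 of the alternatives. Lyve1, a hyaluronan receptor of perivascular macrophages and lymphatic endothelium, was at 43.5 and 13.4 FPKM in ApoE, 89.7 and 141 in CKD and 40.4 and 44.1 in Ctrl. Its difference was -2.17 (SE 0.53, adjusted p = 0.0216). Cd163, the haemoglobin scavenger receptor, was at 18.3 and 9.20 FPKM in ApoE and 28.8 and 60.4 in CKD (difference -1.61). Mrc1, the mannose receptor, was at 50 and 19.8 FPKM in ApoE and 24.9 and 41.1 in CKD, and the groups overlapped. Ccl8, a monocyte attractant, was the member with the largest rise, at 201 and 99.8 FPKM in ApoE against 6.49 and 19.6 in CKD. Without ApoE1 6 members were lower, without ApoE2 1, and without CKD2 none, so the count of lower genes rests on single libraries.

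**Figure D3:**
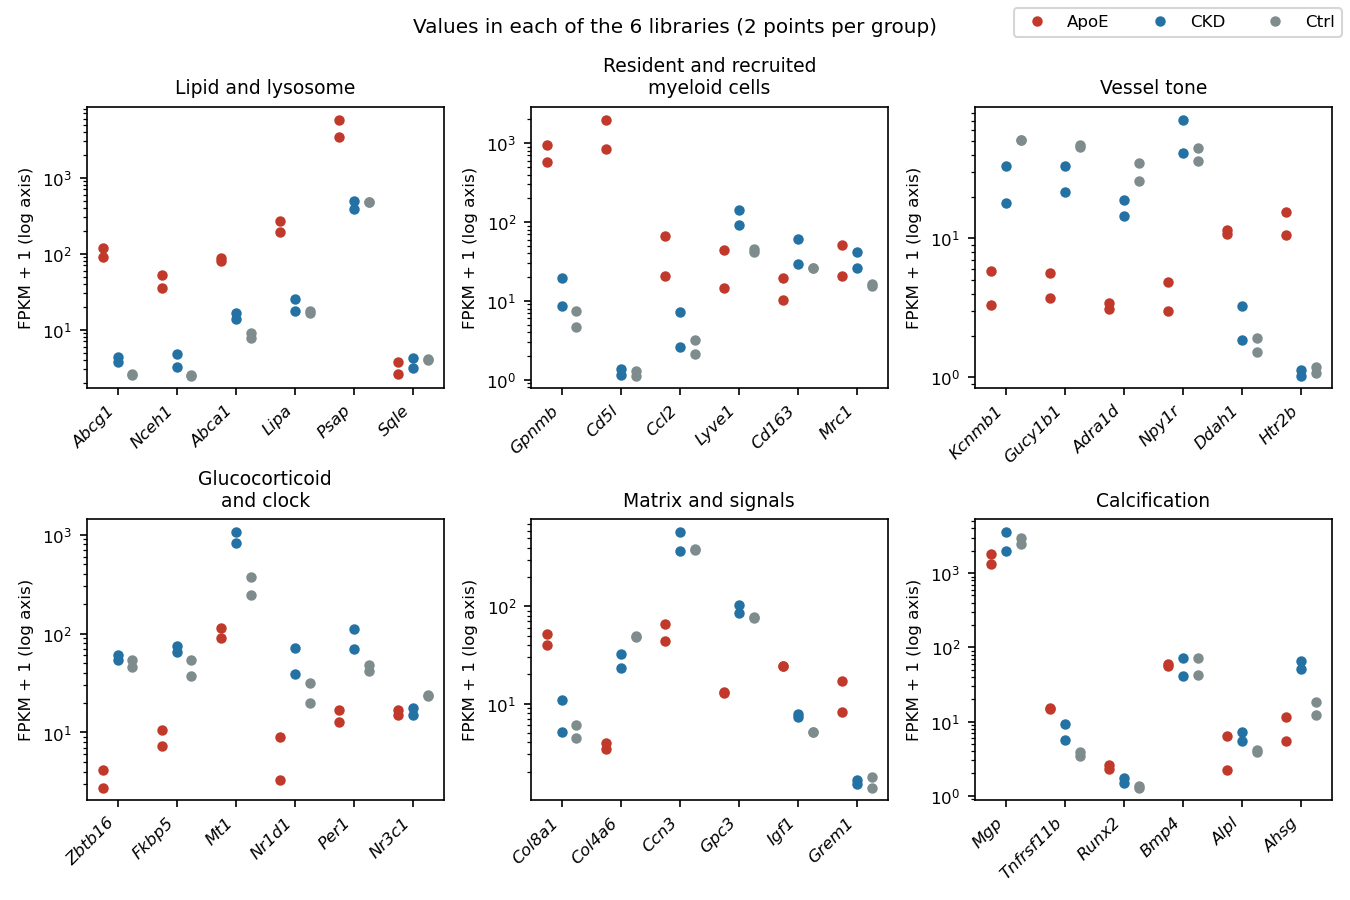
FPKM + 1 on a log axis for 36 genes in 6 panels, 1 point per library and 2 per group. Cholesterol exporters and foam cell genes lie higher in both ApoE libraries, vessel tone genes other than Ddah1 and Htr2b lie lower, and Sqle, Mrc1, Nr3c1 and Bmp4 overlap between ApoE and CKD.

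Genes that recruit and sense in innate immunity were higher in ApoE. Of 27 chemokines and their receptors, 19 were called higher and none lower (median 1.58). Ccl3 and Ccl4, attractants of monocytes and lymphocytes, were higher in ApoE. Ccl3 was at 27.6 and 41.4 FPKM in ApoE and 0.706 and 0.994 in CKD, and Ccl4 at 21.7 and 24.6 in ApoE and 0.102 and 0.420 in CKD. Ccl2, which draws monocytes from blood, was at 66.2 and 19.4 FPKM in ApoE and 1.60 and 6.21 in CKD, and Ccr2, its receptor, at 6.28 and 3.24 FPKM in ApoE and 0.360 and 1.92 in CKD. Ccl6, Ccl9 and Cxcl12 were not called, with differences of 0.97, 0.00 and 0.47. Of 19 Toll-like receptor genes, 13 were higher and 1 lower (median 1.00). Tlr1, which senses bacterial lipopeptides with Tlr2, was at 11.3 and 9.31 FPKM in ApoE and 0.263 and 0.641 in CKD. Tlr13, a sensor of bacterial RNA, was at 31.4 and 29.5 FPKM in ApoE and 3.01 and 5.78 in CKD. Tlr5, the flagellin receptor, was the 1 lower member, at 0.747 and 0.449 FPKM in ApoE and 1.40 and 2.62 in CKD.

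Of 17 inflammasome, interleukin 1 and TNF genes, 10 were called higher and none lower. Il1rn, the secreted antagonist of interleukin 1, was at 21.2 and 14.8 FPKM in ApoE and 0.195 and 0.776 in CKD, a difference of 3.69 (SE 0.25, adjusted p = 0.000621). Il18bp, which neutralises interleukin 18, was at 30.8 and 51.4 FPKM in ApoE and 2.23 and 2.36 in CKD. Il1a was called higher (3.03), and Il1b was at 7.47 and 1.69 FPKM in ApoE and 0.142 and 1.16 in CKD and was not called. Nlrp3, the sensor of the best-known inflammasome, was at 3.11 and 1.41 FPKM in ApoE and 0.650 and 0.853 in CKD and was not called. Of 21 complement genes, 8 were higher and 3 lower. The first component genes C1qa, C1qb and C1qc, made by macrophages, were called higher (1.81, 2.32 and 2.22). Serping1, the inhibitor of the first component, was at 243 and 102 FPKM in ApoE and 372 and 564 in CKD (-1.54), and C7, a component of the membrane attack complex, at 38.4 and 32.3 FPKM in ApoE and 100.1 and 169 in CKD (-1.86). Without ApoE1 the complement counts were 5 lower, and without ApoE2 none was lower.

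Many antigen presentation and interferon genes were higher in ApoE. All 8 tested class II genes were called higher (median 2.32), but 1 of them without ApoE2. Cd74, the invariant chain that guides class II molecules, was at 447 and 947 FPKM in ApoE, 72.3 and 175 in CKD and 231 and 233 in Ctrl. Of 18 genes of class I presentation and the immunoproteasome, which cuts proteins into displayed peptides, 15 were called higher and none lower (median 1.20). H2-D1, a class I heavy chain, was at 887 and 1079 FPKM in ApoE and 299 and 317 in CKD (1.66), and B2m, its light chain, at 2113 and 1728 FPKM in ApoE and 823 and 819.9 in CKD (1.22). H2 genes are near-identical copies of one another, so reads may be split among them. Of 16 GTPases induced by interferon gamma, 14 were higher in ApoE, falling to 9 without either ApoE library. The Ctrl values of several stood near ApoE and not near CKD. Iigp1 was at 13.6 and 18.3 FPKM in ApoE, 3.77 and 7.08 in CKD and 17.1 and 14.8 in Ctrl, and Igtp at 11 and 15.2 FPKM in ApoE, 3.34 and 4.18 in CKD and 15.8 and 14.0 in Ctrl. Of 23 genes of the type I interferon response, 10 were higher and none lower, but 3 were called without ApoE1 or without CKD1, and 4 without either Ctrl library, with the replicate block or without a floor on level. Oas1a, an antiviral sensor, was at 28.9 and 16.5 FPKM in ApoE and 2.08 and 4.92 in CKD, and Bst2, which tethers virus particles, at 279.5 and 149 FPKM in ApoE and 44.1 and 65.7 in CKD. Isg15, at 37.3 and 17.5 FPKM in ApoE and 5.28 and 13.3 in CKD, was not called.

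Many lymphocyte genes were near or below the floor in these libraries. Of 24 T cell and NK cell genes, 13 passed the floor. Of these 3 were called higher and none lower, against 19.5% and 21.9% of all tested genes. The 4 T cell markers summed to 4.44 and 7.57 FPKM in ApoE and to 0.534 and 0.621 in CKD, while the Ctrl libraries differed widely at 1.77 and 16.4. With only the 4 ApoE and CKD libraries in the fit, or without either Ctrl library, 12 of the 13 genes were called higher. Il7r, the interleukin 7 receptor, was at 37.2 and 65.3 FPKM in ApoE and 0.717 and 2.72 in CKD (4.32, SE 0.48, adjusted p = 0.00189), well above any T cell marker. Of 21 B cell and plasma cell genes 11 were tested, 7 were higher and 1 lower. Jchain, which joins secreted antibodies, was at 3.61 and 17.9 FPKM in ApoE and 0.591 and 0.688 in CKD. Irf4, a transcription factor of lymphocytes and plasma cells that is also expressed in fat, was lower in ApoE, at 4.12 and 2.11 FPKM against 20.9 and 11.9 in CKD. Among mast cell genes, 4 of 9 were called lower in ApoE, or 1 without ApoE1, 2 without ApoE2 and 1 without CKD2. Hdc, which makes histamine, was at 0.894 and 0.558 FPKM in ApoE and 5.30 and 3.11 in CKD, while the mast cell proteases Cma1 (17.2 and 13.2 FPKM in ApoE and 14.1 and 15.6 in CKD) and Mcpt4 (24.9 and 26.2 FPKM in ApoE and 26.3 and 25.2 in CKD) overlapped.

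Another 2 short motifs were counted in the same promoter windows because genes of myeloid cells and of the interferon response moved together. GAGGAAGT, a core bound by the myeloid factor PU.1, was present on either strand in 7.5% of 1961 genes called higher, 2.63% of 2127 called lower, 2.98% of genes not called and 3.69% of all genes with a window. The core of the interferon-stimulated response element (TTTC, any 2 bases, TTTC) was present on either strand in 6.32% of genes called higher, 2.35% of those called lower and 3.99% of all, and in 10 of 16 genes of the type I interferon list. The window of Ctss, which encodes the macrophage protease cathepsin S, is shown as an example of a strongly higher gene with the first motif (chr3:95526536-95526835, plus strand). The motif, in capitals, is on the opposite strand, starts 2 bases before the start site and runs past it.
Ctss: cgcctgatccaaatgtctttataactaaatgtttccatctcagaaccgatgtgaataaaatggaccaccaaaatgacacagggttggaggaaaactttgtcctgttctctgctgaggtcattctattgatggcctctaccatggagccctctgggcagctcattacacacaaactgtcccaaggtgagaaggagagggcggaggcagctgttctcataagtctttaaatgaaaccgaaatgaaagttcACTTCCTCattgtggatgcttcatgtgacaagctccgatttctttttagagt
Ctss was at 1756 and 2209.9 FPKM in ApoE, 71.9 and 162 in CKD and 37.7 and 31.2 in Ctrl, with no overlap between ApoE and the other groups. The gene Spi1, which encodes PU.1, was at 56.0 and 60.5 FPKM in ApoE and 8.18 and 12.4 in CKD (2.42).

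Iron handling and the oxidase of phagocytes were higher in ApoE. Of 14 iron and haem genes, 10 were called higher and none lower (median 1.29). Hmox1, which degrades haem, was at 133 and 157 FPKM in ApoE and 28.8 and 36.6 in CKD (2.12). Slc40a1, ferroportin, the cell's iron exporter, was at 6.15 and 12.5 FPKM in ApoE and 0.518 and 0.454 in CKD, a difference of 2.72 (SE 0.30, adjusted p = 0.00182). Tfrc, which takes up transferrin iron, was also higher, at 8.33 and 34.1 FPKM in ApoE and 3.67 and 2.69 in CKD. The ferritin chains Fth1 and Ftl1, which store iron, differed by 1.32 and 2.82. Of 8 NADPH oxidase genes, 5 were higher and 1 lower. The phagocyte subunits Cybb and Cyba differed between the groups. Cybb was at 49.1 and 50 FPKM in ApoE and 4.93 and 9.62 in CKD, and Cyba at 326 and 507 in ApoE and 51.9 and 73.6 in CKD. Nox4, the isoform of vascular cells, went the other way, at 9.08 and 4.40 FPKM in ApoE, 32.5 and 47.9 in CKD and 48.7 and 49.2 in Ctrl (-2.46). NRF2 and antioxidant genes divided, with 7 higher and 4 lower of 21, or 2 lower without either ApoE library and 7 without CKD2. Txn1, thioredoxin, was higher (1.35), and Sod3, the extracellular superoxide dismutase, was lower at 84.9 and 70.8 FPKM against 138 and 274 in CKD (-1.32).

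All 25 tested contractile genes of smooth muscle were lower in ApoE, with a median of -2.47. The smooth muscle sums above hold some of these genes, and the genes that control tone are described here. Of 25 ion channel and calcium handling genes, 16 were called lower and 2 higher (median -1.13). Kcnmb1, the beta subunit that tunes the large calcium-activated potassium channel of vascular muscle, was at 4.84 and 2.30 FPKM in ApoE, 16.8 and 32.2 in CKD and 49.8 and 50 in Ctrl. Its difference was -2.47 (SE 0.37, adjusted p = 0.0047), and the 3 groups did not overlap. Kcnma1, the pore of the same channel, was at 0.244 and 0.252 FPKM in ApoE and 2.18 and 3.0 in CKD. Cacna1c, the L-type calcium channel through which vessels contract, was at 0.817 and 0.403 FPKM in ApoE and 3.71 and 3.65 in CKD (-1.55). Abcc9, a regulatory subunit of the ATP-sensitive potassium channel, differed by -1.88, and Ano1, a calcium-activated chloride channel, by -1.81. Gja4, an endothelial gap junction protein, and Orai1, a store-operated calcium channel, were the 2 higher members (1.28 and 0.91).

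Signalling through cyclic GMP, by which nitric oxide and natriuretic peptides relax the vessel, was represented by 13 tested genes, of which 9 were lower and 1 higher. Gucy1b1, a subunit of the nitric oxide receptor (ENSMUSG00000028005; GRCm38 chromosome 3, 82032006 to 82074689), was at 4.65 and 2.72 FPKM in ApoE and 20.5 and 32.3 in CKD, a difference of -2.55 (SE 0.28, adjusted p = 0.0018). Mrvi1, a substrate of the kinase that cyclic GMP activates, was at 5.77 and 3.86 FPKM in ApoE and 28.4 and 43.4 in CKD. Nos3, the endothelial nitric oxide synthase, was at 11.7 and 13.2 FPKM in ApoE and 14.9 and 16.0 in CKD and was not called. Ddah1, which breaks down an inhibitor of nitric oxide synthases, was the 1 higher member, at 10.5 and 9.78 FPKM in ApoE and 0.849 and 2.24 in CKD (2.18). Of 22 vasoconstrictor receptor and regulator genes, 9 were lower and 4 higher, with 2 higher without either ApoE library and 6 lower without ApoE2. Npy1r, the neuropeptide Y receptor of vascular muscle, was at 3.87 and 1.99 FPKM in ApoE, 39.9 and 70.3 in CKD and 35.2 and 43.8 in Ctrl (-3.82, SE 0.34, adjusted p = 0.00108). Adra1d, an adrenergic receptor, was at 2.08 and 2.44 FPKM in ApoE and 13.5 and 17.8 in CKD. Htr2b, a serotonin receptor, was at 9.60 and 14.4 FPKM in ApoE and 0.0317 and 0.130 in CKD (3.56), and Adrb3, an adrenergic receptor of fat, at 25.1 and 29.6 FPKM in ApoE and 2.52 and 1.03 in CKD (3.40). Ednra, the main endothelin receptor of muscle, was at 1.57 and 0.823 FPKM in ApoE and 2.38 and 2.02 in CKD and was not called.

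Myocd, which encodes myocardin, the master coactivator of contractile genes, was at 0.820 and 0.450 FPKM in ApoE and 8.14 and 14.4 in CKD (-2.87, SE 0.27, adjusted p = 0.00126). Its partner Srf was at 14.0 and 12.7 FPKM in ApoE and 17.4 and 24.9 in CKD and was not called. Klf4, a factor linked to loss of the contractile state, was lower in ApoE, at 21.5 and 20.2 FPKM against 50.8 and 42.7 in CKD and 33.3 and 25.5 in Ctrl (-1.12). Tead1, a partner of YAP, was lower too (-1.90), while Mrtfa, another coactivator of Srf, was higher (0.91). These values come from whole tissue whose smooth muscle sums also differed between the groups, as given above, and the part of those sums in them was not tested.

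Glucocorticoid targets were lower in ApoE than in CKD. Glucocorticoids are adrenal steroid hormones that act through the receptor encoded by Nr3c1. Of 15 tested targets and handling genes, 10 were called lower and none higher, with a median of -1.36. Zbtb16, a zinc finger factor strongly induced by glucocorticoids (ENSMUSG00000066687; GRCm38 chromosome 9, 48654297 to 48836222), was at 3.21 and 1.77 FPKM in ApoE, 60.0 and 53.5 in CKD and 44.6 and 52.9 in Ctrl, a difference of -4.08 (SE 0.22, adjusted p = 0.000497). Fkbp5, a chaperone that dampens the receptor, was at 9.64 and 6.36 FPKM in ApoE, 73.6 and 63.6 in CKD and 36.1 and 52.9 in Ctrl. Mt1, a metallothionein that binds zinc, was at 112 and 88.2 FPKM in ApoE and 1062 and 817 in CKD, and Ctrl lay between at 246 and 376. Ddit4, an inhibitor of the growth kinase mTOR, was at 17.9 and 19.4 FPKM in ApoE, 207 and 119 in CKD and 43.2 and 70.7 in Ctrl. In all 4 genes both ApoE libraries lay below the other 4, and both CKD libraries lay above both Ctrl libraries. Of the other called targets some, such as Per1, had this order and others, such as Cdkn1a, did not. Nr3c1 itself was at 16.0 and 14.1 FPKM in ApoE and 14.0 and 16.6 in CKD, Sgk1 at 51.8 and 85.9 FPKM in ApoE and 91.5 and 84.7 in CKD, and Hsd11b1, which regenerates active hormone, at 38.6 and 14.5 FPKM in ApoE and 24.1 and 23.3 in CKD, and none of these 3 was called.

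No label gives the hour of sampling, with which clock genes and glucocorticoid level normally vary, so its part was not tested. Of 19 clock genes, 12 were lower in ApoE and 2 higher (median -1.08). Nr1d1, a clock repressor, was at 7.91 and 2.34 FPKM in ApoE, 70.5 and 38.1 in CKD and 30.9 and 18.9 in Ctrl, and Per1, a clock gene that glucocorticoids also induce, at 15.7 and 11.9 FPKM in ApoE, 111 and 68.0 in CKD and 41.0 and 47.4 in Ctrl. Ciart was at 0.777 and 1.19 FPKM in ApoE and 18.1 and 12.1 in CKD (-3.0). Per3 and Dbp were highest in Ctrl, Per3 at 15.3 and 17.1 FPKM against 5.29 and 6.94 in CKD, and Dbp at 42.0 and 26.8 against 14.6 and 15.3. The core letters CACGTG, the E-box that the clock activators bind, were present in windows of 5 of 16 clock genes and in 8.09% of all genes with a window. They lie inside TCACGTGA, so the lysosomal matches above count here too, and 13 of 36 lysosomal genes hold CACGTG. Shares among genes called higher and lower were 12.29% and 10.58%, against 11.84% of genes not called and 11.66% of all tested genes with a window. The windows of Per1 (chr11:69098699-69098998, plus strand, 1 of 2 annotated start sites) and Ciart (chr3:95882179-95882478, minus strand) are shown because both were lower in ApoE while the lysosomal genes that share the core were higher, with the core in capitals.
Per1: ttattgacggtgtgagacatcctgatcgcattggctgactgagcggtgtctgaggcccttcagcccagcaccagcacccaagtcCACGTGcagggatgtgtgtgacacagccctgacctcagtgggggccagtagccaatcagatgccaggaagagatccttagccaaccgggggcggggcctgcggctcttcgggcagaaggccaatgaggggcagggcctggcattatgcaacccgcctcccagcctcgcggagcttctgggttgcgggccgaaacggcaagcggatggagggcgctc
Ciart: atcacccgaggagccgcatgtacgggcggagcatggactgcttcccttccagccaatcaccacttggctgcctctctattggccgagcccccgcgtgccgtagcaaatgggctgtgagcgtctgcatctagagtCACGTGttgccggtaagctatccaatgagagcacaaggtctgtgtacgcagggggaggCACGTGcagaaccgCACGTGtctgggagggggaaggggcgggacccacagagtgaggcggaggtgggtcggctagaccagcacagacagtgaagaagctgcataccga
In Per1 the core starts 166 bases before the start site, and in Ciart it starts 116, 58 and 44 bases before.

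Immediate early genes, which answer to stimuli before new protein is made, were lower in ApoE for 12 of 23 and higher for 2. Without ApoE2, without CKD1 or without CKD2 the lower count was 7. Fosb was at 2.60 and 0.873 FPKM in ApoE, 41.0 and 22.2 in CKD and 13.2 and 11.5 in Ctrl (-3.59). Fos and Junb were not called, at 30.6 and 16.8 FPKM in ApoE and 54.2 and 40.4 in CKD and at 80.3 and 63.1 FPKM in ApoE and 74.9 and 67.6 in CKD. Of 7 tested renin angiotensin genes, 3 were lower and none higher. Agt, angiotensinogen, was at 0.299 and 0.747 FPKM in ApoE, 14.5 and 4.69 in CKD and 0.159 and 0.349 in Ctrl. Ren1, renin, was at 0.606 and 0.731 FPKM in ApoE, 5.39 and 4.64 in CKD and 0.399 and 0.757 in Ctrl. Both were higher in CKD than in the other 2 groups by level. In the fit with the adipocyte level as a covariate, limma gave Agt a difference of -2.93 (adjusted p = 0.00194) and Ren1 -1.92 (adjusted p = 0.00117). With 2 libraries a group that fit does not decide the part of fat, which was not tested.

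More matrix genes were called lower than higher in ApoE in the collagen, elastic fibre, proteoglycan and matricellular lists. Matrix proteases and their inhibitors divided, with 9 higher and 5 lower of 24, or 3 lower without ApoE2. Of 22 collagens, 12 were called lower and 1 higher (median -0.77). Without ApoE2 7 were lower, and without CKD2 3 were higher. Col4a6 and Col4a5, chains of the basement membrane around muscle cells, differed between the groups. Col4a6 was at 2.95 and 2.45 FPKM in ApoE and 22.1 and 31.3 in CKD, and Col4a5 at 7.43 and 4.66 in ApoE and 27.4 and 44.4 in CKD. Col18a1 and Col15a1, which anchor basement membranes, differed by -2.50 and -2.51. Col8a1, a short-chain collagen of the activated vessel wall, was the 1 higher member, at 51.6 and 38.8 FPKM against 4.08 and 9.79 in CKD and 5.07 and 3.39 in Ctrl (2.63). The fibrillar collagens overlapped between the 2 calcified groups. Col1a1 was at 149 and 128 FPKM in ApoE and 81.0 and 149 in CKD, with Ctrl far above at 441 and 391, and Col3a1 at 125 and 83.8 FPKM in ApoE, 58.9 and 131 in CKD and 322 and 345 in Ctrl.

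Elastic fibre genes were lower for 8 of 21 and higher for none, falling to 4 without ApoE2 and 5 without CKD2. Eln, elastin, was at 227 and 224 FPKM in ApoE and 309 and 369 in CKD and was not called (-0.58, SE 0.19, adjusted p = 0.0561). Mfap4, a microfibril protein, was lower (-2.41), and so were Ltbp1 (-1.92), which stores latent TGF-beta, and Fbn1 (-1.40), the main fibrillin. Of 16 proteoglycan and hyaluronan genes, 11 were lower and 1 higher (median -1.36), and 7 were lower without ApoE2. Omd and Aspn, small leucine-rich proteoglycans that bind collagen, differed by -2.03 and -2.04. Bgn, biglycan, was at 308 and 269.5 FPKM in ApoE and 465 and 808 in CKD. Cd44, the hyaluronan receptor of leukocytes, was the higher member (1.68). Of 18 matricellular genes, which encode matrix proteins that signal, 8 were lower and none higher. Ccn3 was at 64.8 and 42.9 FPKM in ApoE, 373 and 583 in CKD and 388 and 381 in Ctrl (-3.12, SE 0.29, adjusted p = 0.00124), and Ccn2, a target of TGF-beta, at 219.6 and 152 FPKM in ApoE and 689 and 1181 in CKD. Postn, periostin, was at 32.0 and 23.3 FPKM in ApoE and 125 and 244 in CKD. Sparc was not called between ApoE (378 and 357) and CKD (335 and 594), and both were below Ctrl (1617 and 1746).

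Growth factor genes are given by family. Of 14 insulin-like growth factor genes, 10 were lower in ApoE and 2 higher (median -1.26). Igf1, the growth factor, was higher, at 23.6 and 23.1 FPKM in ApoE and 6.91 and 6.30 in CKD (1.68), while its receptor Igf1r was lower, at 2.59 and 2.09 FPKM in ApoE and 6.76 and 8.98 in CKD (-1.40). The binding proteins Igfbp5, Igfbp6 and Igfbp7 differed by -1.81, -1.94 and -1.5, and Gpc3, a heparan sulphate proteoglycan that limits growth signals, was at 12.1 and 11.9 FPKM in ApoE against 85.3 and 102 in CKD (-2.86). Of 37 genes of the BMP and TGF-beta families, ligands of which drive bone formation and fibrosis, 19 were lower and 3 higher, falling to 8 lower without ApoE2 and 12 without ApoE1, while 6 were higher without CKD2. The ligands Bmp2 (1.06 and 1.14 FPKM in ApoE and 1.56 and 2.51 in CKD) and Bmp4 (58.5 and 55.9 FPKM in ApoE and 40.5 and 69.9 in CKD) were not called. Tgfb1 was called higher, at 27.1 and 36.9 FPKM in ApoE against 6.01 and 11.1 in CKD. Grem1, a secreted BMP antagonist, was at 16.3 and 7.17 FPKM in ApoE and 0.620 and 0.484 in CKD (2.94), while the antagonists Nog and Chrdl1 were lower (-1.21 and -1.5). Id1, a direct BMP target, was at 66.0 and 62.8 FPKM in ApoE and 261 and 191 in CKD (-1.78), and Smad6, an inhibitory target, was lower (-1.15).

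Of 31 Wnt genes, 16 were lower and 1 higher, and 7 were lower without ApoE2. Receptors and co-receptors Fzd1 (-1.31), Fzd4 (-1.26) and Lgr6 (-3.44) were lower. Sost, which encodes sclerostin, an antagonist of Wnt made by bone and vascular cells, was at 9.57 and 13.6 FPKM in ApoE and 149 and 417 in CKD (-4.33). Dkk2, another antagonist, was the higher member (1.26). Axin2, a common readout of Wnt signalling, was at 0.547 and 1.20 FPKM in ApoE and 1.01 and 0.679 in CKD and was not called. In the Notch list, 3 of 13 were higher and 3 lower, near the 19.5% and 21.9% of all tested genes. Heyl, a Notch target of mural cells, was among the lower (-2.13). Pdgfb, a mitogen of muscle cells made by macrophages and endothelium, was at 32.1 and 34.9 FPKM in ApoE and 4.91 and 7.12 in CKD (2.31).

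Genes of phosphate, pyrophosphate and mineral inhibition were called less often than the 41.4% of all tested genes, and bone and cartilage matrix genes more often. Of 15 tested genes of phosphate, pyrophosphate and mineral inhibition, 1 was called higher and 3 lower, with a median of -0.40. Mgp, matrix Gla protein, was at 1796 and 1330.2 FPKM in ApoE and 1999 and 3589 in CKD. Both ApoE libraries lay below both CKD libraries, a pattern that 37.9% of all tested genes had. The Mgp difference of -0.79 was not called by limma (SE 0.34, adjusted p = 0.115). Enpp1, which makes the inhibitor pyrophosphate, was at 2.32 and 2.72 FPKM in ApoE and 1.93 and 3.89 in CKD, Ank, which helps export its source, at 27.1 and 26.6 FPKM in ApoE and 13.9 and 27.3 in CKD, and Alpl, which destroys pyrophosphate, at 5.48 and 1.22 FPKM in ApoE and 6.20 and 4.53 in CKD. Nt5e, which makes adenosine, was at 2.35 and 2.59 FPKM in ApoE and 2.00 and 3.06 in CKD, and Abcc6, the transporter whose loss causes ectopic mineral, did not pass the floor at 0.0329 and 0.0118 FPKM in ApoE and 0.106 and 0.0968 in CKD. Tnfrsf11b, osteoprotegerin, a decoy that blocks osteoclast formation, was higher at 14.1 and 13.9 FPKM in ApoE against 4.68 and 8.21 in CKD (1.05, SE 0.24, adjusted p = 0.017). The phosphate carrier Slc20a2 was lower (-1.14) and Slc20a1 was not called (-0.30). Ahsg, fetuin-A, a circulating mineral inhibitor made mainly by liver, was at 10.6 and 4.47 FPKM in ApoE, 49.4 and 63.8 in CKD and 17.3 and 11.1 in Ctrl (-2.84), and Gas6, a vitamin K-dependent ligand, was lower as well (-1.5). Without ApoE1 5 were lower and without CKD1 6.

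Of 9 tested transcription factors of bone and cartilage, 2 were called higher and 2 lower, near the 19.5% and 21.9% of all tested genes. Another 6 did not pass the floor. Atf4, a stress factor that also serves bone cells, was at 104 and 95.7 FPKM in ApoE and 147 and 126 in CKD, and Twist1, an inhibitor of bone differentiation, at 7.21 and 8.97 FPKM in ApoE and 9.76 and 11.9 in CKD, and neither was called. Msx1 and Sox6 were the lower members (-0.84 and -0.70). Runx2, which commits cells to bone, was at 1.60 and 1.29 FPKM in ApoE, 0.482 and 0.721 in CKD and 0.360 and 0.284 in Ctrl. It was called higher by 0.61 (SE 0.17, adjusted p = 0.0304), a call kept in 1 of 6 fits with 1 library left out. Runx1, a factor of blood cells, was higher by 1.21. Sox9, the cartilage factor, was at 1.23 and 1.42 FPKM in ApoE and 0.736 and 1.29 in CKD and was not called, and Sp7 and Msx2 did not pass the floor. Of 11 tested genes of bone and cartilage matrix, 3 were called higher and 4 lower, with a median of -0.49. Sost, given above, was among the lower. Col2a1, the cartilage collagen, was at 5.34 and 7.30 FPKM in ApoE and 0.101 and 0.219 in CKD (2.65, SE 0.18, adjusted p = 0.00062). Comp and Cilp, cartilage matrix proteins, went the other way (-2.54 and -2.96). Ibsp, bone sialoprotein, was at 2.00 and 0.781 FPKM in ApoE and 0.360 and 1.81 in CKD and was not called. Spp1, osteopontin, made by bone cells and by macrophages, was at 3109 and 2652 FPKM in ApoE and 23.4 and 60.0 in CKD. Among genes that missed the floor, Fgf23, the bone hormone that lowers phosphate, was at 11 and 0.334 FPKM in ApoE and 0 and 0.229 in CKD, and Col10a1, of hypertrophic cartilage, at 5.19 and 0.946 FPKM in ApoE and 0.173 and 0.332 in CKD. In both only ApoE1 was above 1 FPKM, so these values rest on 1 library and have no test.

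Endothelial genes were higher in ApoE for 8 of 23 and lower for none, with a median of 0.48. Without either ApoE library only 1 was called. Plvap, a protein of fenestrated endothelium, was at 108 and 99.0 FPKM in ApoE and 22.9 and 29.4 in CKD (1.95). Vcam1, an adhesion molecule for leukocytes, was at 49.2 and 42.6 FPKM in ApoE and 13.4 and 23.1 in CKD. Of the 5 markers used above, Cdh5 and Tie1, an adhesion protein and a receptor of endothelium, were called higher (0.97 and 0.88) and Vwf was not (0.98). The markers Pecam1 (106 and 108 FPKM in ApoE and 90.2 and 155 in CKD) and Kdr (4.80 and 5.68 FPKM in ApoE and 8.40 and 2.75 in CKD) were not called. Adventitial fibroblast genes were lower for 6 of 16, or 3 without ApoE2, with Dcn (-0.88) and Pdgfra (-1.05) not called. The mesothelial list had 6 of 7 lower and 1 higher. Msln, mesothelin, was at 2.94 and 2.13 FPKM in ApoE, 18.4 and 19.2 in CKD and 0.256 and 0.406 in Ctrl, and Upk3b at 3.25 and 1.43 FPKM in ApoE, 22.7 and 16.8 in CKD and 0.119 and 0.318 in Ctrl. Both genes, of the lining of body cavities, were highest in CKD.

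Plau, urokinase, which activates plasmin, was at 59.2 and 79.3 FPKM in ApoE and 2.28 and 3.52 in CKD (4.18, SE 0.24, adjusted p = 0.000497). The neighbouring coagulation genes F7 (ENSMUSG00000031443; GRCm38 chromosome 8, 13026034 to 13035809) and F10 (ENSMUSG00000031444; GRCm38 chromosome 8, 13037308 to 13056676) were both higher in ApoE. F7, factor VII, was at 24.4 and 27.3 FPKM in ApoE, 0.655 and 0.708 in CKD and 0 and 0 in Ctrl, and F10, factor X, at 6.96 and 6.03 FPKM in ApoE, 0.272 and 0.482 in CKD and 0.154 and 0.0968 in Ctrl. In all, 56 genes were below 1 FPKM in both CKD libraries and at 5 or more in both ApoE libraries, and 31 were the reverse. Such genes had to differ, so their count supports nothing. The most abundant of the first kind, leaving out genes with clone-type or immunoglobulin segment symbols, were Cd5l, a macrophage survival protein (841 and 1982 FPKM in ApoE and 0.365 and 0.136 in CKD), Ccl3, F7, Syngr1, a synaptic vesicle protein (15.8 and 34.8 FPKM in ApoE and 0.872 and 0.432 in CKD), and Pianp (5.48 and 43.1 FPKM in ApoE and 0.403 and 0.850 in CKD), whose ApoE libraries differed widely. Under the same limit those of the reverse kind were Xirp1, an actin-binding protein of muscle (0.505 and 0.737 FPKM in ApoE and 21.5 and 33.2 in CKD), Dsp, the desmosome protein desmoplakin (0.769 and 0.881 FPKM in ApoE and 12 and 22.8 in CKD), Grip2 (0.657 and 0.697 FPKM in ApoE and 17.6 and 15.5 in CKD), Myocd and Pabpc1l (0.392 and 0.395 FPKM in ApoE and 16.7 and 6.99 in CKD). Pabpc1l, a poly(A)-binding protein, was low in Ctrl too, at 0.419 and 0.558.

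Few genes of oxidative phosphorylation and fatty acid oxidation were called, against 41.4% of all tested genes, while glycolysis genes came nearer that share. None of 28 nuclear genes of oxidative phosphorylation was called by limma, nor had any an unadjusted p below 0.05. Atp5b, an ATP synthase subunit, was at 303 and 336 FPKM in ApoE and 421 and 232 in CKD. The median difference of these 28 genes was 0.09 and ran from -0.33 to 0.51 over the alternatives. CKD1 is the library with the high adipocyte sum, and the part of that sum in these values was not tested. Of 19 fatty acid oxidation genes 1 was lower, with 3 higher without CKD1 and 3 lower without CKD2. Of 12 mitochondrially encoded genes 1 was higher, or 6 without CKD1. Of 25 glycolysis genes, 7 were higher and 2 lower, with 3 of each without ApoE1. Hk3, the hexokinase of myeloid cells, was at 51.2 and 65.2 FPKM in ApoE and 1.29 and 3.14 in CKD (4.26), Pfkm, a muscle isoform of phosphofructokinase, was lower (-0.86), and Slc2a1, a glucose carrier, was at 12.6 and 9.67 FPKM in ApoE and 10.2 and 12.1 in CKD and not called. Fasn and Acly, of fatty acid synthesis, were higher (2.62 and 2.01). By limma none of 22 ribosomal protein genes was called or had an unadjusted p below 0.05, and their differences ran from -0.33 to 0.09.

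Several stress and growth genes were higher in ApoE. Of 23 genes of the unfolded protein response, 12 were higher and none lower, or 7 without ApoE2. Sdf2l1, a chaperone cofactor of the endoplasmic reticulum, was at 75.1 and 75.5 FPKM in ApoE and 9.52 and 12.3 in CKD (2.69), and Hspa5, the central chaperone, at 233 and 207 FPKM in ApoE and 105 and 139.8 in CKD (0.85). Of 21 proliferation genes, 11 were higher and none lower, but 1 without ApoE1 or without CKD1 and 5 without CKD2. Mki67 was at 5.10 and 2.71 FPKM in ApoE and 0.444 and 0.688 in CKD. Cdkn2a, a cell cycle inhibitor that marks senescence, was at 5.89 and 5.17 FPKM in ApoE and 0.519 and 0.886 in CKD (1.94), while Cdkn1a, another, was lower, at 45.2 and 42.0 FPKM in ApoE, 159.6 and 80.6 in CKD and 26.4 and 25.6 in Ctrl. Gdf15, a stress cytokine, was at 18.0 and 25.5 FPKM in ApoE and 1.57 and 1.46 in CKD (3.16).

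**Figure D4:**
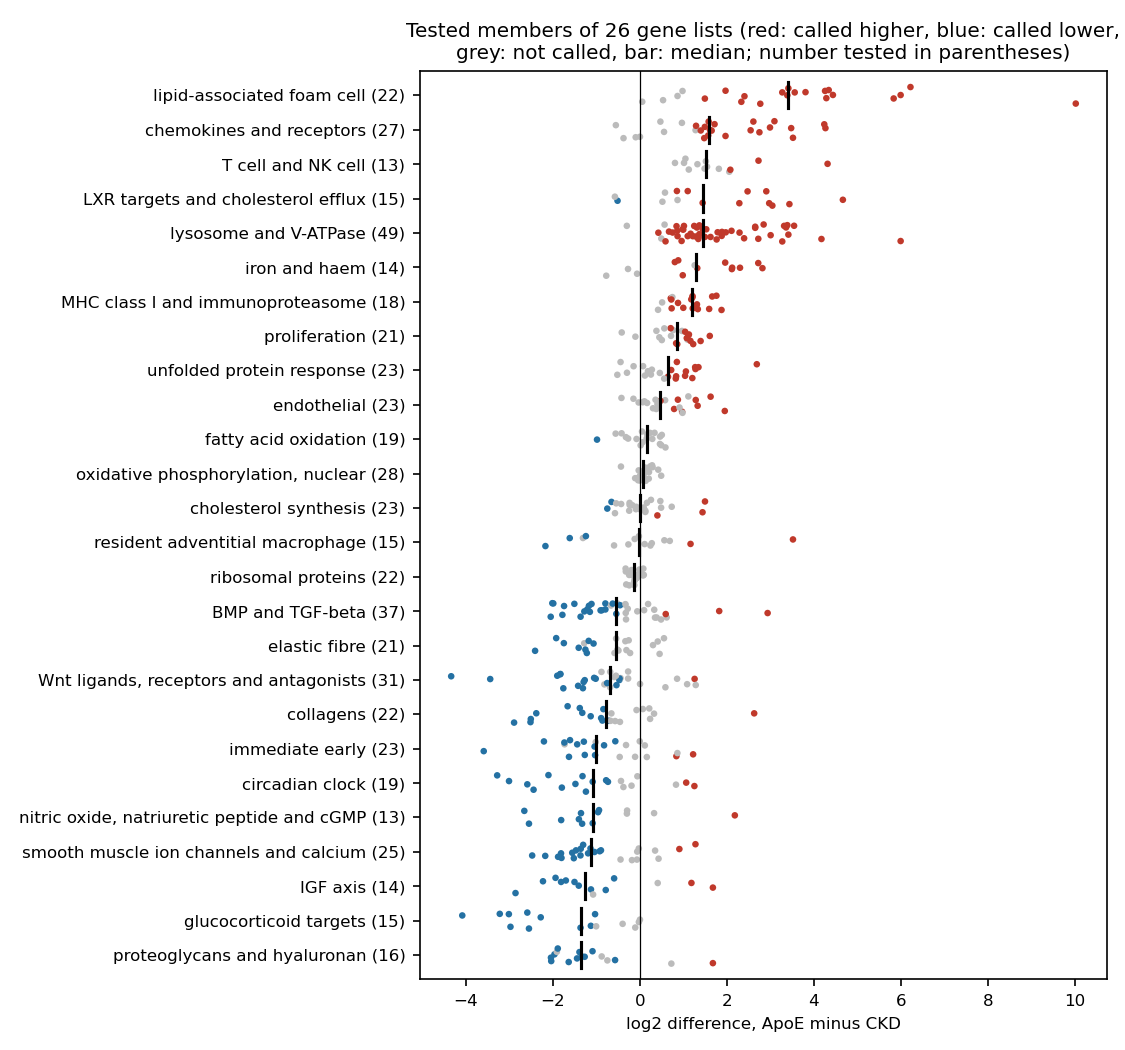
Log2 difference between ApoE and CKD for the tested members of 26 gene lists, with 1 point per gene (red called higher, blue called lower, grey not called) and a bar at the median. Lysosomal genes lie to the right of 0 almost without exception, ribosomal and oxidative phosphorylation genes stay around 0, and glucocorticoid targets and proteoglycans lie to the left.

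Outside protein-coding genes the balance of calls was different. Over all tested genes 19.5% were called higher and 21.9% lower. Of 204 antisense genes, 14 were higher in ApoE and 80 lower. Of 198 lincRNA genes, 38 were higher and 65 lower. Of 73 snoRNA genes, small RNAs that guide modification of ribosomal RNA and mostly lie in introns, 4 were higher and 31 lower (median -1.11). Of 601 processed pseudogenes, 72 were higher and 45 lower, so that 19.47% were called, below the 41.4% of all tested genes. Protein-coding genes were nearly balanced, at 2435 higher and 2583 lower of 11895. Reads over small RNA genes in polyadenylated RNA come from longer precursor or host transcripts, and without strand a read of an antisense gene can belong to its partner.

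**Figure D5:**
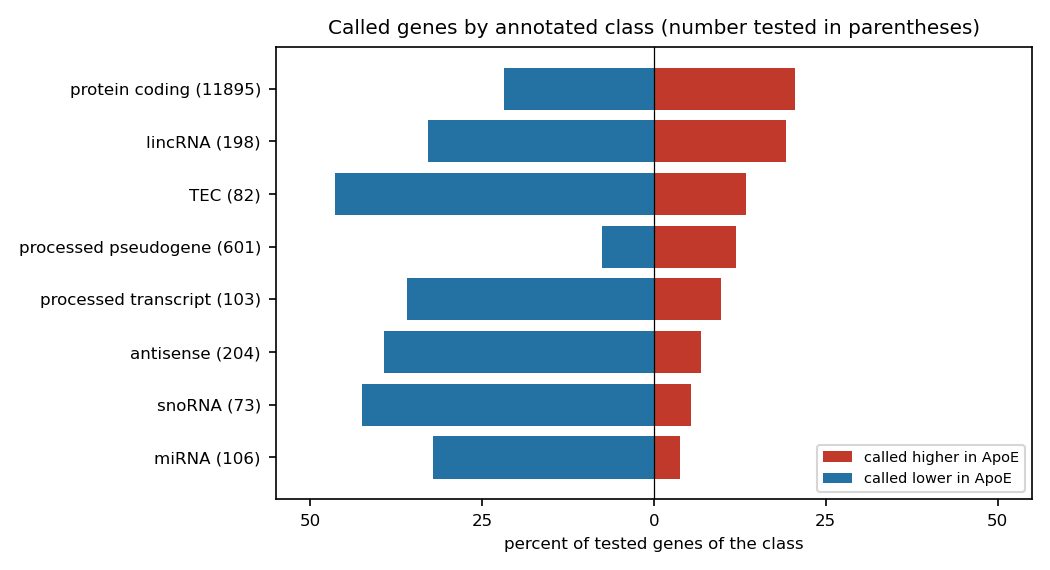
Percent of tested genes called higher (right, red) and lower (left, blue) in ApoE for the annotated classes with at least 70 tested genes. Antisense, snoRNA and miRNA genes were called lower more often than higher, and processed pseudogenes were not.

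Among 76 tested genes with a miRNA symbol, 27 were called lower in ApoE and 1 higher, with a median of -0.97. Of the 27, 12 had 10 or more reads in both CKD libraries. Another 11, among them Mir26a-1 and Mir27a, were at 0 in both ApoE libraries. These 11 passed the floor only through CKD, which fixed their direction, so their count supports nothing. They and the others rest on few reads, such as 2 and 1 in CKD for Mir3569. These values count reads over the hairpin region and are not levels of mature miRNAs. The mature sequences of 5 arms from genes called lower are shown, from RefSeq on GRCm38.p6, 5′ to 3′, with the seed (bases 2 to 8, which pairs with targets) in capitals.
miR-23a-3p: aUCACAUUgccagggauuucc
miR-27a-3p: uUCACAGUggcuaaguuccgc
miR-26a-5p: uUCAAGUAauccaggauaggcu
let-7b-5p: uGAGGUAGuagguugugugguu
let-7c-5p: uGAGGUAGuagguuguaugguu
The let-7 arms share a seed, and their genes, Mirlet7b and Mirlet7c-2, lie within 1 region of chromosome 15. Mirlet7b was at 5.17 and 6.33 FPKM in ApoE and 42.2 and 22.8 in CKD, which is 7 and 8 reads against 53 and 28, and Mirlet7c-2 at 4.62 and 5.66 FPKM in ApoE and 52.7 and 24.8 in CKD, which is 7 and 8 reads against 74 and 34. Mir23a, at 0 and 2.69 FPKM in ApoE and 41.5 and 20.3 in CKD (-3.97, SE 0.70, adjusted p = 0.00782), had 0 and 3 reads against 46 and 22. Mir27a, in the same cluster on chromosome 8, had 0 reads in both ApoE libraries and 8 and 3 in CKD. Mir23b, a relative of Mir23a on chromosome 13, was at 1.70 and 2.73 FPKM in ApoE and 32.0 and 26.2 in CKD (-3.24). Mir26a-1 had no read in either ApoE library and 8 and 10 in CKD. The muscle pair Mir143 and Mir145a differed between the groups. Mir143 was at 19.9 and 12.8 FPKM in ApoE and 853 and 790.2 in CKD, and Mir145a at 25.1 and 20.2 in ApoE and 803 and 801 in CKD. This pair had 719 to 830 reads in the CKD libraries, the most among the miRNA genes described here.

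Genes around Apoe on chromosome 7 were called at the following shares. The ApoE mice differ from the others at this locus by design, so its neighbourhood was counted. Within 250 kb of the start of Apoe, 5 of 17 tested genes were higher and 3 lower (47.1%). From 250 to 1000 kb, 2 were higher and 12 lower of 27 (51.9%). From 1 to 5 Mb it was 45.5%, and beyond 20 Mb on the same chromosome 41.1%, against 41.4% of all tested genes. The 22 called within 1 Mb became 9 without ApoE2 and 13 without ApoE1. Among the called neighbours, Dmpk, a kinase of muscle, was at 23.9 and 21.9 FPKM in ApoE and 149 and 224 in CKD (-2.94), and Bcl3, a partner of NF-kappaB, at 11.2 and 9.49 FPKM in ApoE and 3.33 and 3.08 in CKD (1.43).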

How the data were processed

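Polyadenylated RNA of 6 aorta libraries was measured, with 2 libraries each of ApoE, CKD and Ctrl. The authors deposited FPKM per gene for each library, in 5 files with gene IDs and values stacked in 1 column and in 1 file with 2 columns. The file headers do not name the unit, which was taken from their values: multiplied by exon length they gave whole reads within 0.05 for most values under 60 reads. Depth was the number of reads so recovered. The submitters' processing notes name Bowtie2 2.2.3, HISAT2 2.1.0, TopHat2 and GRCm38, with no role given, while no counting tool or annotation is stated (not given in the sources used here). Symbols and exon lengths came from GENCODE M21 and matched 27730 of 27815 genes.

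Genes at 1 FPKM or more in 2 of the 4 libraries were taken to log2(FPKM + 1) and fitted with limma 3.58.1 in R 4.3.3 (trend and robust spread, all 6 libraries), with the threshold at an adjusted p of 0.05. A count test was not the main test because the deposited unit is FPKM. The fit was tested on simulated data. The alternatives were other scalings, pseudocounts, filters, spread estimates, the replicate block, an adipocyte covariate and leaving out each library.

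The naming rule took Apoe, the 12 largest called differences each way at a group mean of 5 FPKM or more, up to 4 called genes per list at 2 FPKM or more, fixed genes of mineralisation, genes below 1 FPKM in one group and at 5 or more in the other, called genes within 1 Mb of Apoe, and the 5 called genes of smallest adjusted p under a 2-fold difference. Members and lists were chosen with earlier results of these data known, and members named beyond that rule were chosen after their values were seen. Some items that the rule picked are not reported here.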

Additional observations from a re-analysis of the deposited data

How the results depend on the processing

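No gene called both with all 6 libraries and under an alternative changed sign, and scaling moved the median of all tested genes by at most 0.05. No called gene had overlapping groups, so leaving out 1 library or changing the pseudocount or filter could not reverse a sign. For those alternatives the unchanged sign supports nothing. Leaving out 1 library gave 3052 to 5134 called genes, 1653 to 2467 higher and 1368 to 2667 lower, the lowest count of called genes being without ApoE2. Near Apoe, 22 genes were called, 12 at a floor of 5 FPKM, and 9 (without ApoE2) to 21 (without CKD2) with 1 library left out, with 13 without ApoE1. Scaling that left out mitochondrial and the 50 most abundant genes gave 2446 higher and 3247 lower. A test against a 2-fold difference, added after seeing the data, called 639. Of 263 called named genes, 192 kept their call with each library left out. No named value was reversed, which for called genes the lack of overlap had fixed when a library was left out. Libraries sharing a number did not deviate together (correlation of deviations -0.10 between ApoE and CKD, 0.03 between ApoE and Ctrl and -0.25 between CKD and Ctrl), so they were not treated as pairs. With the replicate block the fit called 4633 genes, and with the block in only the 4 libraries, also added after seeing the data, 3764. Crossed pairing of the 4 libraries, likewise added, called 4347, against 4317 with no block. At this depth, genes near 1 FPKM rest on few reads where they are short, which holds for most miRNA genes. With 2 libraries a group, leaving out 1 leaves a lone library that is assumed to vary like the other groups.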
